A study of Mus musculus with 9 samples.

Results

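The trophectoderm is the outer epithelium of the blastocyst, from which the placenta arises, and its transcription factors and keratins begin to be transcribed around the 8-cell stage. In outer cells of the mouse embryo, the DNA-binding factor TEAD4 with its co-activator YAP1, together with Notch signalling through RBPJ, turns on *Cdx2*, whose product represses pluripotency genes. Hippo signalling keeps YAP1 out of the nucleus of inner cells, and the AP-2 factor TFAP2C acts before and during this choice on polarity, on *Cdx2* and on keratin genes. The 9 genes described here were taken by symbol, and all 9 were listed once among the 55335 entries of each library. They are *Cdx2*, *Gata3*, *Tfap2c*, *Tfap2a*, *Eomes*, *Elf5* and *Id2*, which encode transcription regulators, and *Krt8* and *Krt18*, which encode the keratin pair of simple epithelia.

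To examine whether mitofusin 1 (MFN1, a fusion protein of the outer mitochondrial membrane) and histone H3.3 act on the same program, RNA was measured in 8-cell embryos of ICR mice made by in vitro fertilization. Zygotes had received nontargeting siRNA (control), siRNA against *Mfn1* (MFN1-KD) or siRNA against *H3f3a* and *H3f3b*, the pair of genes that encode H3.3 (H3.3-KD), so that all groups were injected and cultured alike. Each group had 3 libraries, each from a pool of embryos (5 to 10 per the labels), and knockdown by injected siRNA lowers a transcript without deleting the gene. Values are FPKM, that is, fragments scaled to gene length and to library size, which makes genes of different length comparable. A pool averages inner and outer cells, so fewer cells of a type and less RNA per cell cannot be told apart.

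The targeted genes were low where the labels place them. *Mfn1* was at 51.57, 22.55 and 23.77 FPKM in control libraries and at 9.54, 4.40 and 1.15 FPKM in MFN1-KD, 15.4% of the control mean (adjusted p = 0.0431). This call was lost in 11 of 17 other settings (adjusted p 0.0343 to 0.158). In H3.3-KD *Mfn1* was at 100.24, 89.52 and 40.02 FPKM, 235% of the control mean, and was not called (adjusted p = 0.143). In H3.3-KD embryos the mean of *H3f3a* was 7.72% and that of *H3f3b* 8.24% of the control mean (adjusted p = 7.2e-06 and 9.0e-06). In MFN1-KD embryos these means were 69.1% and 93.3% of control, and neither gene was called (adjusted p = 0.153 and 0.821). Across all libraries 15577 to 24820 entries were above 0, and depth in reads is unknown. Replicate 3 of MFN1-KD stood apart at the low end: 12.4% of the 13011 genes tested were listed at 0 there against 2.74% to 4.55% in the other 8 libraries. None of 12 housekeeping genes was listed at 0. Of genes averaging 1 to 3 FPKM in the other libraries, 32.9% were listed at 0 in this one. Taken likewise, that share was 7.36% to 14.0% for the other 8. MFN1-KD replicate 3 also listed 4 of the 9 trophectoderm genes at 0, so the value in that library is given below for each of the 9.

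Differences between groups were tested on log2(FPKM + 1) in a linear model over all genes whose mean reached 1 FPKM (limma), and a gene was called at a Benjamini-Hochberg adjusted p under 0.05. *Cdx2*, *Gata3*, *Tfap2c*, *Id2*, *Krt8* and *Krt18* were in that test. *Tfap2a*, *Eomes* and *Elf5* had means of 0.730, 0.569 and 0.158 FPKM over the 9 libraries and were not. Among the 6, *Tfap2c* and *Cdx2* were called higher in H3.3-KD, and none was called lower. *Cdx2* met the filter only through its H3.3-KD level, so that it had to differ to be tested. In MFN1-KD 0 of the 6 were called by limma, and 2 (*Tfap2c* and *Krt18*) had an unadjusted p under 0.05. Of all 13011 genes tested, 3025 had an unadjusted p under 0.05 in MFN1-KD. The whole test called 21.8% of genes higher and 9.12% lower in H3.3-KD, and 1.15% higher and 2.20% lower in MFN1-KD. On the log2(FPKM + 1) scale the median difference of all genes was 0.26 after H3.3 knockdown and -0.08 after *Mfn1* knockdown. Both comparisons use the same 3 control libraries.

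*Cdx2*, the caudal-type homeobox factor of the trophectoderm program, lies on chromosome 5 (GRCm38, 147300805 to 147307270, minus strand). Its level was 0.09, 0.08 and 0.06 FPKM in control libraries and 0.00, 0.06 and 0.00 FPKM in MFN1-KD. H3.3-KD libraries had 2.21, 6.24 and 0.57 FPKM. Every H3.3-KD library lay above every other library, and these 3 also differed widely among themselves (3.01 ± 2.92 FPKM, SD, n = 3, an SD of 97.0% of the mean). Of all tested genes, 34.5% had every H3.3-KD library above every control library. The ratio of the H3.3-KD and control means was 39.2 and rests on these low control levels, for which the depth is unknown. On the log2(FPKM + 1) scale the difference was 1.62 (SE 0.54, 95% CI 0.43 to 2.82, adjusted p = 0.0426), and against MFN1-KD it was 1.70 (SE 0.54, adjusted p = 0.0292). *Cdx2* met the filter, with a mean of 1.03 FPKM over the 9 libraries, only through H3.3-KD, so that a gene entering this way had to differ. The H3.3-KD call was lost in 11 of 17 other settings (adjusted p 0.00882 to 0.250). Among them were no filter (0.0629), median-ratio (0.0549) and upper-quartile scaling (0.0622), a replicate block (0.0516) and removal of the GC and length trend (0.250). Leaving out any 1 control library, H3.3-KD replicate 1 (0.0729) or replicate 2 (0.142), or MFN1-KD replicate 1 (0.0502) also lost it. In MFN1-KD the difference from control was -0.08 (95% CI -1.27 to 1.12, adjusted p = 0.958).

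*Gata3*, a zinc finger factor that acts beside *Cdx2* downstream of TEAD4, was already above *Cdx2* in control embryos. Its level was 1.84, 1.26 and 1.46 FPKM in control, 0.52, 1.95 and 0.00 FPKM in MFN1-KD, and 1.78, 3.15 and 0.68 FPKM in H3.3-KD. The 3 groups overlapped, and both knockdown groups spread further than the control group (SD 1.01 and 1.24 FPKM against 0.295 FPKM). The difference from control was -0.61 in MFN1-KD (95% CI -1.66 to 0.45, adjusted p = 0.478). For H3.3-KD the difference was 0.10 (95% CI -0.95 to 1.15, adjusted p = 0.900), and its sign turned under both other scalings and without H3.3-KD replicate 2. *Gata3* spans 9857078 to 9890034 on chromosome 2 and overlaps *Gm13256* and *4930412O13Rik* on the other strand and *9230102O04Rik* on its own, so some of its reads may belong to these genes.

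*Tfap2c*, the AP-2 gamma factor, was the most abundant of the 9 genes in every library and made up 42.4% to 92.0% of their summed FPKM. Its level was 30.88, 22.53 and 16.50 FPKM in control, 35.00, 39.29 and 50.90 FPKM in MFN1-KD, and 54.29, 61.99 and 62.70 FPKM in H3.3-KD. No library of one group overlapped those of another, with control lowest, MFN1-KD between and H3.3-KD highest. In H3.3-KD the mean was 2.56 times that of control, a difference of 1.36 on the log2(FPKM + 1) scale (SE 0.28, 95% CI 0.75 to 1.97, adjusted p = 0.00465). It was called in 16 of 17 other settings and not after upper-quartile scaling (0.84, adjusted p = 0.0596). In MFN1-KD the mean was 1.79 times that of control, and the difference of 0.84 (SE 0.28, 95% CI 0.23 to 1.45) was not called (adjusted p = 0.109). The knockdowns differed from each other by 0.52 (95% CI -0.09 to 1.13, adjusted p = 0.160). Of all tested genes, 34.5% had every H3.3-KD library above every control library and 11.4% had every MFN1-KD library above. *Tfap2c* lies on chromosome 2 (172549593 to 172558622, plus strand) and overlaps no other annotated gene.

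Among 5933 genes averaging 10 FPKM or more, the most like *Tfap2c* over the 9 libraries were *Rnf44*, which encodes a RING finger protein (Pearson r = 0.99), and *Arrdc2*, which encodes an arrestin-domain protein (r = 0.98). Their means rose in the same order as *Tfap2c*, from 7.61 through 22.9 to 50.1 FPKM for *Rnf44* and from 5.20 through 17.6 to 34.6 FPKM for *Arrdc2* in control, MFN1-KD and H3.3-KD. These r describe the order of 3 groups sharing 9 libraries and carry no test.

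*Tfap2a*, the AP-2 alpha factor, was under 1 FPKM in every control and MFN1-KD library. Its level was 0.16, 0.09 and 0.22 FPKM in control, 0.76, 0.20 and 0.00 FPKM in MFN1-KD, and 0.72, 3.21 and 1.21 FPKM in H3.3-KD. Every H3.3-KD library lay above the control libraries, whereas H3.3-KD and MFN1-KD overlapped. The former also held for 34.5% of the 13011 genes tested, a set without *Tfap2a*. When the filter was set at a mean of 0.1 FPKM, the H3.3-KD difference from control was 1.12 (SE 0.35, 95% CI 0.34 to 1.91) with an adjusted p of 0.050, just under the threshold, and with no filter the adjusted p was 0.0881. A two-sided exact permutation test of 3 libraries against 3 cannot go below 0.10, which is what *Tfap2a* gave. The gene (chromosome 13, 40715302 to 40738376) overlaps 3 antisense genes, and the strand setting of the counting was not stated.

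*Eomes* and *Elf5*, the T-box and ETS factors that later keep trophoblast stem cells, were barely detected in any group. *Eomes* was at 0.32, 0.67 and 0.20 FPKM in control, 0.21, 1.13 and 1.01 FPKM in MFN1-KD, and 0.18, 0.45 and 0.95 FPKM in H3.3-KD. *Elf5* was at 0.11, 0.00 and 0.08 FPKM in control, 0.05, 0.08 and 0.55 FPKM in MFN1-KD, and 0.01, 0.50 and 0.04 FPKM in H3.3-KD. All groups overlapped for both genes. With the lower filter, the differences from control for *Eomes* were 0.32 in MFN1-KD (adjusted p = 0.636) and 0.11 in H3.3-KD (adjusted p = 0.850), and those for *Elf5* were 0.18 (adjusted p = 0.698) and 0.13 (adjusted p = 0.712).

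*Id2*, which encodes an inhibitor that binds basic helix-loop-helix factors and marks early outer cells, was present throughout. Its level was 4.82, 3.64 and 9.98 FPKM in control, 3.71, 9.39 and 2.75 FPKM in MFN1-KD, and 2.00, 3.10 and 6.38 FPKM in H3.3-KD. The groups overlapped, and 1 library in each was well above its other 2. The difference from control was -0.23 in MFN1-KD (95% CI -1.36 to 0.90, adjusted p = 0.829) and -0.57 in H3.3-KD (95% CI -1.70 to 0.56, adjusted p = 0.428).

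*Krt18* and *Krt8* lie 23.7 kb apart on chromosome 15 and encode the partner chains of the first intermediate filaments of the embryo. *Krt18* was at 10.80, 6.51 and 8.26 FPKM in control, 3.07, 0.90 and 0.12 FPKM in MFN1-KD, and 7.60, 4.24 and 1.46 FPKM in H3.3-KD. Every MFN1-KD library lay below every control library, and H3.3-KD overlapped both. The MFN1-KD mean was 16.0% of the control mean, a difference of -2.19 (SE 0.55, 95% CI -3.42 to -0.96), which missed the call (unadjusted p = 0.00254, adjusted p = 0.0590). Over 17 other settings the adjusted p ran from 0.0451 to 0.196, and the 1 setting that called it left out MFN1-KD replicate 1. Without MFN1-KD replicate 3, the library with many genes at 0, the difference was -1.75 (adjusted p = 0.115). At the kind of threshold used in the study, a change over 2-fold with p under 0.05 before adjustment, *Krt18* was the only 1 of the 6 to pass in MFN1-KD, where 9.05% of genes passed lower and 5.02% higher. In H3.3-KD *Tfap2c* and *Cdx2* passed it, where 23.9% passed higher and 9.39% lower, and *Cdx2* met the filter only through H3.3-KD. Of all genes, 16.8% had every MFN1-KD library below every control library, and 18.9% had every H3.3-KD library below. The *Krt18* difference in H3.3-KD was -0.96 (95% CI -2.19 to 0.27, adjusted p = 0.216).

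*Krt8* was not called in either knockdown. It was at 1.98, 1.73 and 2.15 FPKM in control, 0.79, 1.90 and 0.00 FPKM in MFN1-KD, and 1.43, 7.52 and 0.14 FPKM in H3.3-KD. The control libraries were close together, while H3.3-KD held both the highest and, after the 0 of MFN1-KD, the lowest value. The difference from control was -0.77 in MFN1-KD (95% CI -2.23 to 0.69, adjusted p = 0.521) and -0.04 in H3.3-KD (95% CI -1.50 to 1.42, adjusted p = 0.975). The ratio of *Krt18* to *Krt8* was 5.45, 3.76 and 3.84 in control libraries. It was 3.89 and 0.474 in the 2 MFN1-KD libraries with *Krt8* above 0, and 5.31, 0.564 and 10.4 in H3.3-KD, so that replicate 2 of each knockdown had less *Krt18* than *Krt8*. The pseudogene *Krt8-ps* was listed at 0.12 FPKM in 1 library and at 0.00 FPKM in the other 8. How reads shared with keratin pseudogenes were assigned was not stated.

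**Figure D1:**
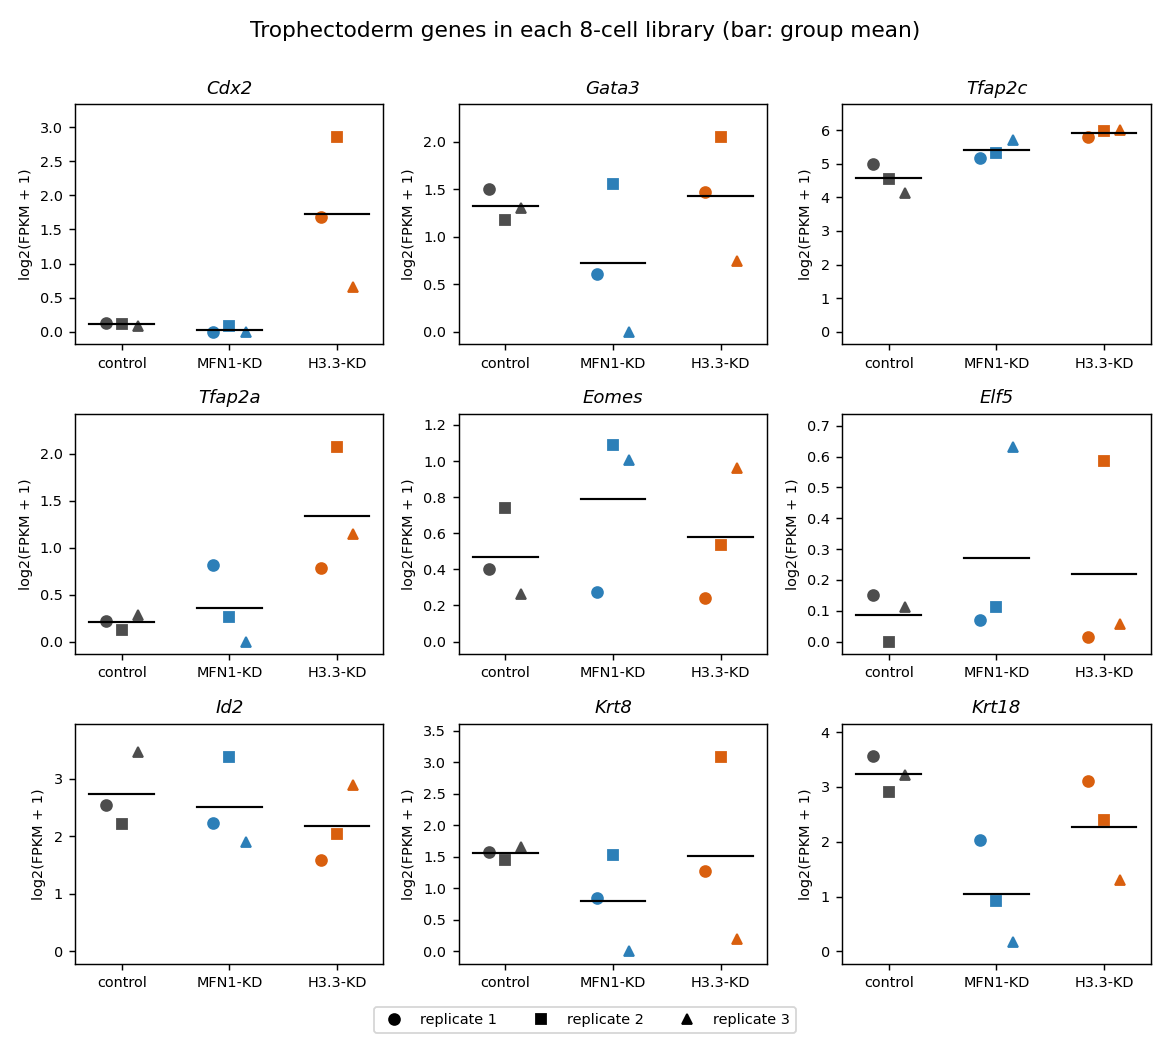
Level of each of the 9 genes as log2(FPKM + 1), in 3 libraries per group, with replicates 1, 2 and 3 as circle, square and triangle and the group mean as a bar. For *Tfap2c* no groups overlap, for *Cdx2* the H3.3-KD libraries (0.57 to 6.24 FPKM) lie above all others, and for *Krt18* the MFN1-KD libraries (0.12 to 3.07 FPKM) lie below control (6.51 to 10.80 FPKM). The vertical scale differs between panels.

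**Figure D2:**
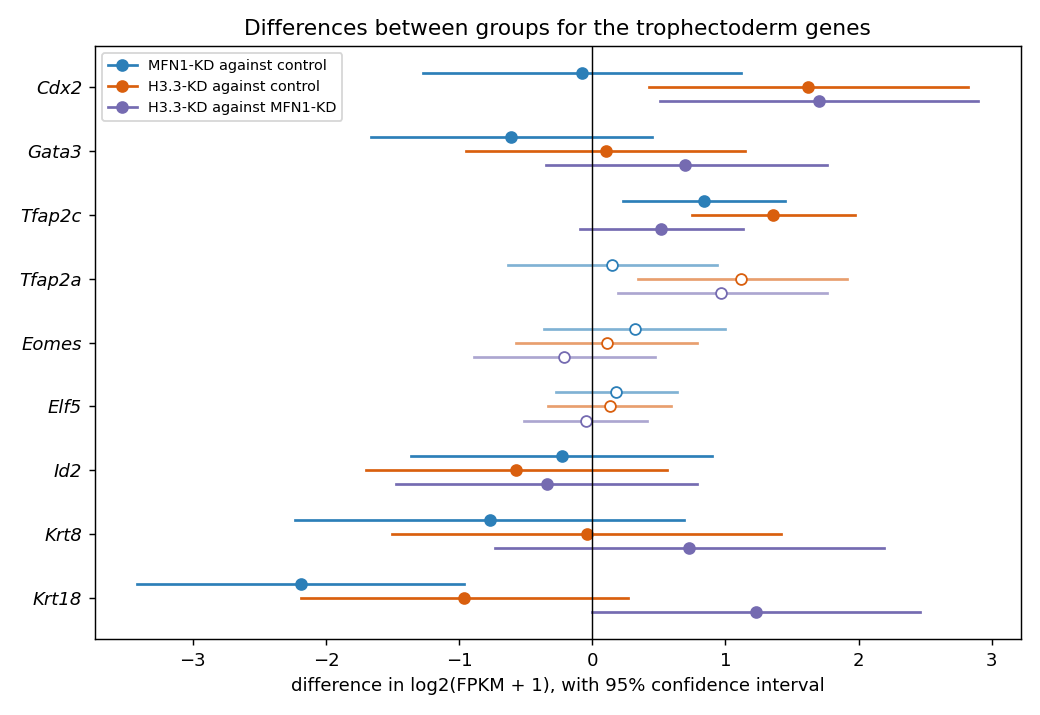
Differences between groups on the log2(FPKM + 1) scale with 95% confidence intervals, 3 libraries per group. Filled points are from the test of 13011 genes and open points, for *Tfap2a*, *Eomes* and *Elf5*, from the test with the filter at 0.1 FPKM. The interval of *Tfap2c* in H3.3-KD runs from 0.75 to 1.97 and that of *Krt18* in MFN1-KD from -3.42 to -0.96.

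The sequences just upstream of *Cdx2*, *Krt8* and *Krt18* are shown because *Cdx2* and *Krt18* carried the largest differences of the 6 tested genes in the respective knockdowns and because *Krt8* is the partner of *Krt18*. They are from the RefSeq promoter table (GRCm38.p6), in which 8 of the 9 genes matched and *Tfap2c* had no entry, and end at the base before the annotated start of the gene. The stretches are chr5:147307271-147307499 on the minus strand, chr15:102004483-102004592 on the minus strand and chr15:102027966-102028179 on the plus strand, each written 5′ to 3′ along the gene. Capitals mark matches on either strand to 6 motifs. The factor TEAD4 was searched for as GGAATG and the AP-2 factors as GCCNNNGGC. Zinc finger factors of the GATA family were searched for as AGATAA and ETS factors such as ELF5 as CCGGAA. The TATA box was taken as TATAAA, and the E-box of helix-loop-helix factors, which Id proteins antagonize, as CANNTG.
Cdx2: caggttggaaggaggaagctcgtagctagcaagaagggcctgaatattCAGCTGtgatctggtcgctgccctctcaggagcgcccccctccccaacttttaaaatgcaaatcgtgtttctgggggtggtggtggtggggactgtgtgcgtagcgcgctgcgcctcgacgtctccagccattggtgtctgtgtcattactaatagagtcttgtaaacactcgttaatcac
Krt8: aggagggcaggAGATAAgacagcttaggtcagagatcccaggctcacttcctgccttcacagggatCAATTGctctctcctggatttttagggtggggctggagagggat
Krt18: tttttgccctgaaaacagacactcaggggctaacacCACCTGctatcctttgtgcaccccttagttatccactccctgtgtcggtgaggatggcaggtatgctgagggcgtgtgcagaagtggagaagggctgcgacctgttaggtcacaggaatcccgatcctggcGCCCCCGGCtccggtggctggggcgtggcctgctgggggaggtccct
For the shares below, all promoters were cut to the same length from their upstream end. They need not lie at the same distance from a gene start as the printed stretches. The *Cdx2* stretch of 229 bases had 11 CpG dinucleotides, more than 67.7% of promoters cut to that length, and 1 E-box match, as did 63.4% of promoters. The *Krt18* stretch of 214 bases had 8 CpG, 1 AP-2 match (present in 11.5% of promoters) and 1 E-box match (61.3%). The *Krt8* stretch of 110 bases had 0 CpG, 1 GATA match (4.9%) and 1 E-box match (39.0%). No matches overlapped. TEAD, ETS and TATA letters were in none of these windows, which says nothing of sites elsewhere.

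The order of the 9 levels could be read per length in each group. In control embryos *Tfap2c* (16.50 to 30.88 FPKM) was above all others. *Krt18* (6.51 to 10.80 FPKM) and *Id2* (3.64 to 9.98 FPKM) followed and did not differ beyond their spread, nor did *Krt8* (1.73 to 2.15 FPKM) and *Gata3* (1.26 to 1.84 FPKM) after them. *Eomes* and *Tfap2a* came next with overlapping ranges, and *Cdx2* (0.06 to 0.09 FPKM) lay within the range of *Elf5* (0.00 to 0.11 FPKM). In H3.3-KD the mean of *Cdx2* (3.01 FPKM) was at place 5 of 9, next to *Krt8* (3.03 FPKM), where the ranges of *Krt18*, *Id2*, *Krt8*, *Cdx2*, *Gata3* and *Tfap2a* overlapped. In MFN1-KD *Krt18* (1.36 FPKM) was behind *Id2* (5.28 FPKM), with overlapping ranges, and *Cdx2* (0.0200 FPKM) was last.

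Within groups, the same library was often the highest or the lowest for several genes. Replicate 2 of H3.3-KD was the highest of its 3 libraries for 5 genes (*Cdx2*, *Gata3*, *Tfap2a*, *Elf5* and *Krt8*) and the lowest for none. Replicate 3 of H3.3-KD was the lowest for *Cdx2*, *Gata3*, *Krt8* and *Krt18* and yet the highest for *Tfap2c*, *Eomes* and *Id2*. Replicate 2 of MFN1-KD was the highest for *Cdx2*, *Gata3*, *Eomes*, *Id2* and *Krt8*, and replicate 3 was the lowest for 6 genes. In control, replicate 1 was the highest for 5 genes and replicate 2 the lowest for 6. MFN1-KD replicate 3 is the library with 12.4% of tested genes listed at 0, and the part of this in its low values was not tested.

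Many other regulators of the trophectoderm were called higher in H3.3-KD. Of 21 listed, 16 were tested, 9 were called higher and 0 lower, where 21.8% of all genes were higher, and their median difference was 1.26 against 0.26 for all genes. With no filter the median of the 21 was 0.73, against 0.04 for all genes. This list, like the others, was chosen with earlier results of these data known, so the excess is not independent evidence. *Hand1*, a helix-loop-helix factor of trophoblast giant cells, was at 14.7 ± 4.75 FPKM in control (SD, n = 3) and at 158 ± 62.7 FPKM in H3.3-KD (difference 3.31, SE 0.37, adjusted p = 2.3e-04). *Snai1*, a zinc finger repressor also expressed in giant cell precursors, rose from 1.24 ± 0.918 to 22.4 ± 5.99 FPKM (3.43, SE 0.37, adjusted p = 2.1e-04). The others called were *Sp6*, *Cebpa*, *Mbnl3*, *Klf5*, *Sox15*, *Fgfr2* and *Ovol1*. The 9 calls became 4 after upper-quartile scaling and without control replicate 2, and 5 without control replicate 3, without H3.3-KD replicate 2 and with the GC and length trend removed, where 1 gene was called lower. In MFN1-KD 0 were called higher and 2 lower, where 1.15% of all genes were higher and 2.20% lower. *Msc*, a helix-loop-helix repressor, went from 2.25 ± 0.683 to 0.0267 ± 0.0462 FPKM (-1.64, SE 0.38, adjusted p = 0.0477). *Sox15*, an SRY-box factor of trophoblast, fell from 317 ± 43.0 to 125 ± 62.7 FPKM in MFN1-KD (-1.44, SE 0.32, adjusted p = 0.0425) and rose to 784 ± 91.4 FPKM in H3.3-KD (1.30, SE 0.32, adjusted p = 0.0108). Both MFN1-KD calls were lost in 13 of 17 other settings each, among them without MFN1-KD replicate 3, where *Msc* was at 0.00 and *Sox15* at 71.31 FPKM.

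Genes of the trophectoderm epithelium (water channels, junctions, keratins and others) were called higher in H3.3-KD for 8 of 18 tested and lower for 2, where 21.8% and 9.12% of all genes were, with a median of 0.89 against 0.26. *Cldn4*, a tight junction claudin, rose from 5.14 ± 2.49 to 114 ± 8.63 FPKM (4.30, SE 0.65, adjusted p = 0.00102). *Jup*, which encodes junction plakoglobin, rose from 1.58 ± 0.348 to 22.2 ± 1.08 FPKM (3.18, SE 0.32, adjusted p = 1.7e-04). *Cldn7*, *Ocln*, *Atp1b1* and the aquaporins *Aqp3*, *Aqp9* and *Aqp11* were also called higher. *Tspan8*, a tetraspanin, fell from 14.7 ± 1.39 to 2.24 ± 1.01 FPKM (-2.32, SE 0.38, adjusted p = 0.00158), and *Tjp1*, the junction scaffold ZO-1, from 11.9 ± 5.26 to 5.13 ± 0.987 FPKM (-1.01, SE 0.34, adjusted p = 0.0464, a call lost in 11 of 17 other settings). The 8 higher calls became 5 without control replicate 3, and the 2 lower calls became 1 without any 1 of the control or H3.3-KD libraries. The median became 0.37 after upper-quartile scaling and -0.01 with no filter, where 31 genes of the list were tested. In MFN1-KD none of the 18 was called, and 2 had an unadjusted p under 0.05, as did 3025 of all 13011 genes. The keratins of this list other than the pair above, *Krt7* and *Krt19*, stayed under 1 FPKM in every library, and *Krt20* was listed at 0 in all 9.

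Upstream of *Cdx2*, 5 of 13 tested Hippo and Notch genes were called higher in H3.3-KD and 1 lower, where 21.8% and 9.12% of all genes were, and the list median of 0.27 was close to the 0.26 of all genes. None was called in MFN1-KD, where 3 had an unadjusted p under 0.05, as did 3025 of all 13011 genes. The list median in MFN1-KD was 0.46 against -0.08 for all genes, and 0.15 against -0.11 with the GC and length trend removed. After median-ratio and upper-quartile scaling 2 of the 13 were called higher in MFN1-KD, where 176 and 143 of all 13011 genes were. In H3.3-KD *Yap1*, the Hippo-regulated co-activator, rose from 8.36 ± 1.80 to 50.4 ± 16.9 FPKM (2.43, SE 0.32, adjusted p = 4.9e-04). *Nf2*, the Hippo activator Merlin, rose from 16.3 ± 4.49 to 60.2 ± 22.6 FPKM (1.78, SE 0.34, adjusted p = 0.00324), and *Amotl2*, *Tead4* and the Notch-linked *Sbno1* were also called. *Amot*, the angiomotin that retains YAP1 in the cytoplasm, fell from 3.78 ± 1.54 to 1.06 ± 0.856 FPKM (-1.26, SE 0.40, adjusted p = 0.0354). This call was lost in 7 of 17 other settings (adjusted p up to 0.117), among them without any 1 control library. Genes that raise and genes that lower YAP1 activity were both among those called higher. The H3.3-KD calls became 3 higher and 2 lower after upper-quartile scaling.

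Genes of the inner cell mass, the alternative fate, were called higher for 6 of 18 tested in H3.3-KD and lower for 2, where 21.8% and 9.12% of all genes were, with a median of 0.45 against 0.26. *Pou5f1*, which encodes OCT4, rose from 7.24 ± 1.95 to 262 ± 175 FPKM (4.65, SE 0.68, adjusted p = 9.0e-04), and *Klf2*, a pluripotency zinc finger factor, from 28.5 ± 12.3 to 152 ± 52.5 FPKM (2.42, SE 0.38, adjusted p = 0.00124). *Carm1*, *Utf1*, *Esrrb* and *Gata4* were also called higher. *Prdm14* fell from 4.69 ± 0.293 to 1.03 ± 0.795 FPKM (-1.56, SE 0.36, adjusted p = 0.00824) and *Sall4* from 119 ± 18.2 to 47.1 ± 4.07 FPKM (-1.31, SE 0.24, adjusted p = 0.00273). With the GC and length trend removed, 2 were called higher and 2 lower. In MFN1-KD 1 of the 18 was called higher and 1 lower, where 1.15% and 2.20% of all genes were. The adhesion molecule *Pecam1* fell there from 13.5 ± 0.709 to 3.09 ± 1.77 FPKM (-1.93, SE 0.38, adjusted p = 0.0359), and was at 1.17 FPKM in replicate 3. This call was lost in 9 of 17 other settings (adjusted p up to 0.152). The SOX factor *Sox21* rose there from 6.22 ± 1.81 to 18.5 ± 5.87 FPKM, with 24.73 FPKM in replicate 3 (1.42, SE 0.34, adjusted p = 0.050, just under the threshold and at most 0.199 over other settings). The *Sox21* call was lost in 15 of 17 other settings.

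Of the genes in the same families as the 9, 11 of 21 averaged 1 FPKM or more. *Gata1* rose in H3.3-KD from 19.3 ± 6.99 to 71.2 ± 14.7 FPKM (1.86, SE 0.34, adjusted p = 0.00268) and *Gata4* from 17.2 ± 2.71 to 45.1 ± 13.0 FPKM (1.32, SE 0.30, adjusted p = 0.00791, and 0.328 with the GC and length trend removed). These were 2 of the 11, where 21.8% of all genes were higher. In MFN1-KD none of the 11 was called, and 1 had an unadjusted p under 0.05, as did 3025 of all 13011 genes. *Id3*, the most abundant inhibitor of the Id family, was at 140 ± 42.0 FPKM in control, 35.7 ± 21.0 in MFN1-KD (-2.10, SE 0.63, adjusted p = 0.0896) and 77.4 ± 52.0 in H3.3-KD (-1.08, adjusted p = 0.221). *Id1* was at 2.11 ± 0.617, 0.573 ± 0.406 and 5.75 ± 4.06 FPKM, with no call against control. *Id4*, *Gata6*, *Tfap2e*, *Elf1*, *Elf2*, *Elf3* and *Elf4* had control means of 0.630, 17.3, 0.620, 2.11, 19.6, 1.66 and 1.28 FPKM and were not called in either knockdown. Of 10 tested Id partners and BMP pathway genes 2 were called higher in H3.3-KD, a share close to the 21.8% of all genes. The E protein *Tcf3* was at 0.890 FPKM on average in control and 4.69 in H3.3-KD (1.60, SE 0.31, adjusted p = 0.00376, and 0.349 with the GC and length trend removed). Like *Cdx2* it met the filter only through H3.3-KD. The call of the inhibitory *Smad7* (1.23, SE 0.41, adjusted p = 0.0455) was lost in 13 of 17 other settings, with a difference down to 0.41 and an adjusted p up to 0.469. None of the 10 was called in MFN1-KD, where 0 had an unadjusted p under 0.05, against 3025 of all 13011 genes.

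**Figure D3:**
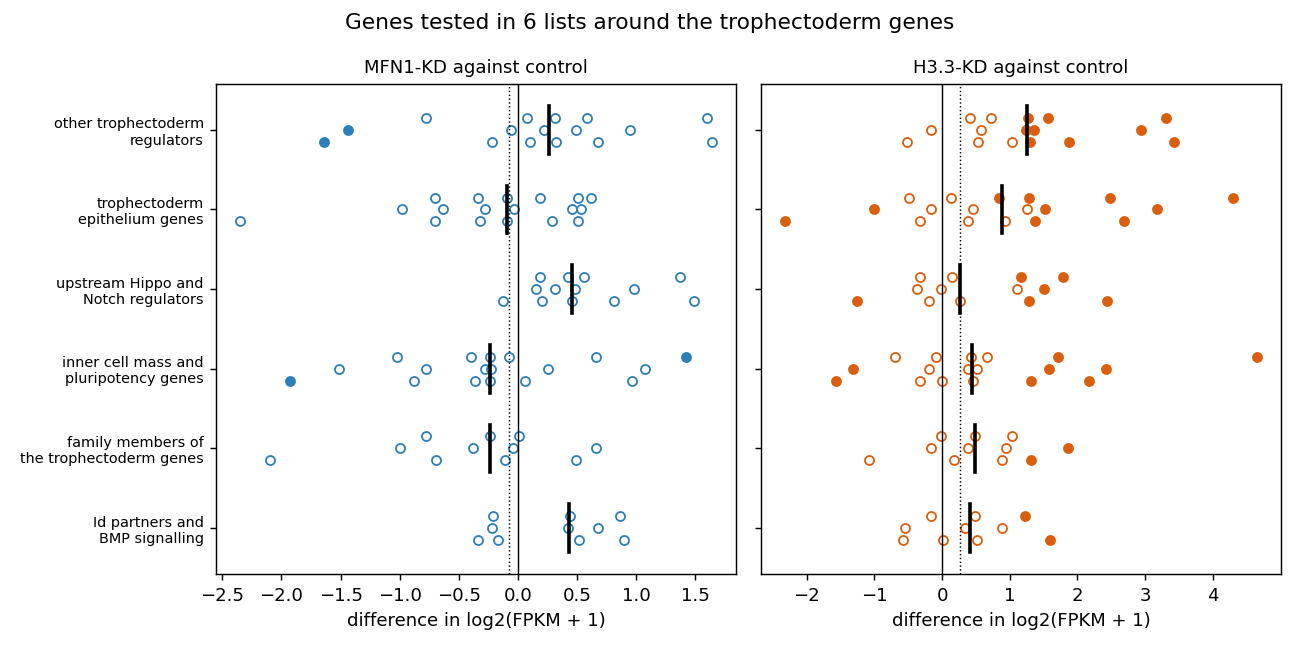
Difference from control of every tested gene in 6 lists, on the log2(FPKM + 1) scale, for MFN1-KD (left) and H3.3-KD (right). Filled points passed an adjusted p of 0.05, thick bars are list medians and the dotted line is the median of all 13011 genes. In H3.3-KD the medians of other trophectoderm regulators (1.26) and epithelium genes (0.89) lie to the right of the 0.26 of all genes. The lists were chosen with earlier results of these data known.

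H3.3-KD and MFN1-KD were also set against each other directly. Of the 6 tested genes only *Cdx2* was called (higher in H3.3-KD, values above), where 27.6% of all genes were called higher and 11.0% lower. It met the filter only through H3.3-KD, so that it had to differ to be tested. *Krt18* was higher in H3.3-KD by 1.23 (SE 0.55, 95% CI -0.00 to 2.46, adjusted p = 0.104). *Gata3* differed by 0.70 (95% CI -0.35 to 1.76, adjusted p = 0.266), *Krt8* by 0.73 (95% CI -0.73 to 2.19, adjusted p = 0.409) and *Id2* by -0.34 (95% CI -1.47 to 0.79, adjusted p = 0.631). These intervals are wide enough to hold differences of more than 2-fold.

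The size of the differences varied with the GC content of the transcript. Over the 12816 tested genes with a GC content, the median H3.3-KD difference ran from -0.29 in the lowest of 10 bins of GC to 1.10 in the highest, and the MFN1-KD median from 0.24 to -0.24. *Cdx2* (57.5% GC) was in bin 10, *Krt8* (57.1%) and *Krt18* (56.4%) in bin 9, and *Tfap2c* (52.7%) in bin 7. The H3.3-KD difference of *Cdx2* (1.62) lay above the median of its bin (1.10) and that of *Tfap2c* (1.36) above its own (0.39), whereas those of *Krt8* (-0.04) and *Krt18* (-0.96) lay below theirs (0.85). After this trend and that of length were removed, *Tfap2c* was higher by 0.81 (adjusted p = 0.0431) and *Cdx2* by 0.83 (adjusted p = 0.250). The share of H3.3-KD calls that were higher was 70.5%, against 54.8% after median-ratio and 44.3% after upper-quartile scaling. Under these scalings *Tfap2c* was higher by 1.03 (adjusted p = 0.0200) and 0.84, and *Cdx2* by 1.44 and 1.38, of which only the first passed.

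**Figure D4:**
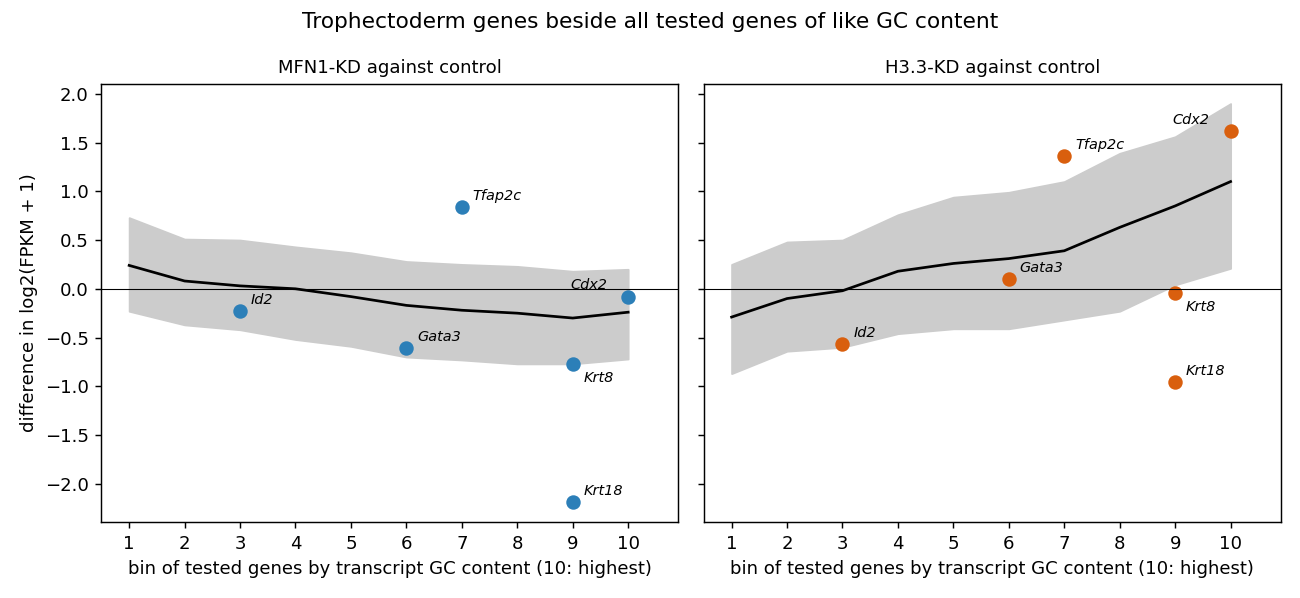
Differences from control on the log2(FPKM + 1) scale in 10 bins of transcript GC content, for MFN1-KD (left) and H3.3-KD (right). The line is the median and the grey band the interquartile range of all tested genes in each bin, and points are the 6 tested trophectoderm genes. *Tfap2c* lies above the band in both panels and *Krt18* below it.

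**Figure D5:**
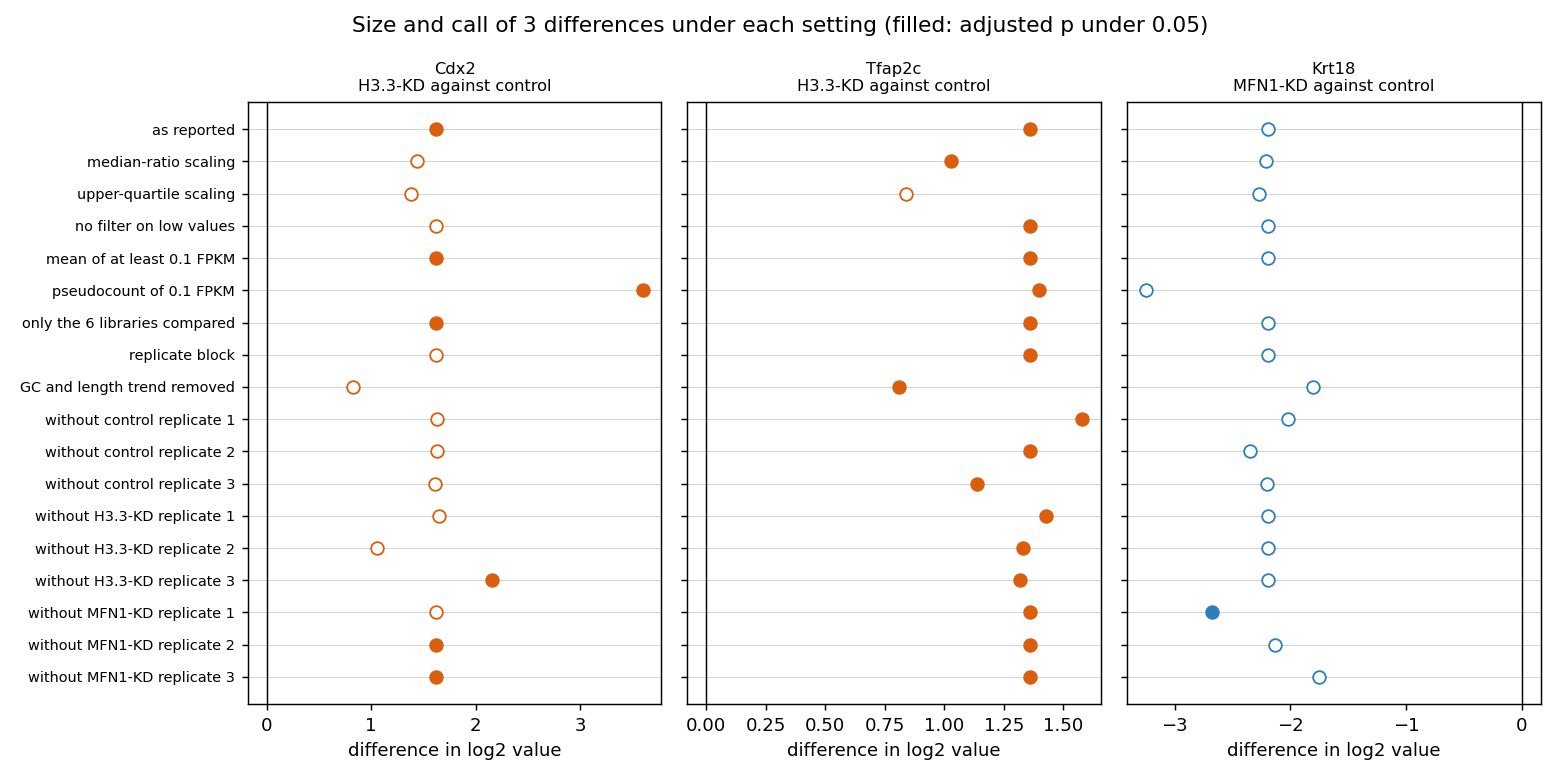
Difference in log2 value of *Cdx2* and *Tfap2c* in H3.3-KD and of *Krt18* in MFN1-KD, each against control, as reported and under 17 other settings. Filled points have an adjusted p under 0.05. *Tfap2c* is filled in all but upper-quartile scaling, *Cdx2* is open in 11 settings and *Krt18* is filled in 1.

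Markers of other cells and stages were set beside these results, and their part in them was not tested. The 16 cumulus and granulosa markers summed to 16.4 to 30.5 FPKM in control, 11.5 to 21.0 in MFN1-KD and 40.0 to 68.4 in H3.3-KD. *Amhr2* was the only 1 with a group mean over 1 FPKM, and *Fshr*, *Cyp11a1*, *Inhba* and *Hsd3b1* were listed at 0 in all 9 libraries. The 7 sperm markers summed to at most 2.93 FPKM in any library. The 16 oocyte-stored transcripts summed to 121 to 125 FPKM in control, 48.4 to 134 in MFN1-KD and 69.2 to 192 in H3.3-KD. Of 14 tested only *Npm2* was called against control (lower in H3.3-KD, where 9.12% of all genes were lower). The 15 two-cell genes found, of 16 listed, summed to 25.6 to 33.3 FPKM in control, 24.5 to 97.5 in MFN1-KD and 226 to 549 in H3.3-KD. *Tdpoz4* alone was at 210.93, 339.05 and 466.98 FPKM in the H3.3-KD libraries. There 2 of 11 tested, *Tdpoz3* and *Tdpoz4*, were called higher, where 21.8% of all genes were. Of 10 markers of later trophoblast and extraembryonic endoderm, *Tpbpa*, *Prl3d1*, *Prl2c2* and *Sox7* were listed at 0 throughout. *Prl3b1*, a placental lactogen gene, was at 247.86, 340.82 and 385.82 FPKM in control, 170.48, 201.64 and 280.40 in MFN1-KD, and 28.65, 94.66 and 13.33 in H3.3-KD, where it was called lower. *Amhr2*, *Npm2*, *Tdpoz3*, *Tdpoz4* and *Prl3b1* were chosen after their values were seen.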

How the data were processed

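RNA was amplified by Smart-Seq2 with an oligo-dT primer. The authors trimmed reads with cutadapt 1.16 and used STAR with the mm10 genome. Their test, Deseq2, needs counts, which were not used here. The deposited values are FPKM, normalized by the authors for gene length and library size and rounded to 2 decimals. The program, annotation and strand setting behind them are not given in the sources used here. Depth is therefore unknown and no counting interval is given. All 9 libraries were used. P-values measure the spread between 3 pools per group.

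One limma 3.58.1 model (R 4.3.3, with mean-variance trend and robust variances) covered 13011 genes averaging 1 FPKM or more, on log2(FPKM + 1), without covariates, and adjusted by Benjamini-Hochberg over all of them. The pipeline was tested on simulated data. Fold changes of low genes are understated on this scale. Alternatives were other scalings, filters and pseudocount, the 6 libraries compared, a replicate block, removal of a GC and length trend (spline, 5 degrees of freedom), and leaving out each library. Positions and GC are from GENCODE M21 (53647 of 55335 symbols matched). Summaries used pandas 2.3.3 in Python 3.11.15, and plots matplotlib 3.10.9.

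The members and gene lists were chosen with earlier results of these data known, and 1 listed gene is not reported here. Named are all 9 genes, the siRNA targets, per list and knockdown the called genes that rose most and fell most (2 each), family genes averaging 1 FPKM or more, and the 2 genes most correlated with any member that averages 10 FPKM or more.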

Additional observations from a re-analysis of the deposited data

Results flagged for a closer look

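Replicate groups of 3 were too small for a check of outlying libraries. For the genes named under the rule, the differences between the knockdowns that passed an adjusted p of 0.05 in the direct comparison (limma, H3.3-KD minus MFN1-KD, log2(FPKM + 1)) are given here because the 2 knockdowns then differ in their effect against the same control. Among the 9 trophectoderm genes this held for *Cdx2* (1.70, higher in 3 of 3 H3.3-KD libraries, and lost in 5 of 17 other settings), which met the filter on low values only through H3.3-KD. Over all genes 27.6% were called higher and 11.0% lower in this comparison. Among other regulators, of which 8 of 16 were called higher, the named ones were *Msc* (1.12), *Sox15* (2.75), *Snai1* (2.48) and *Hand1* (2.82). Of these, *Sox15* was called lower in MFN1-KD and higher in H3.3-KD, and *Msc* kept the call in 4 of 17 other settings.

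In the epithelium list, with 9 of 18 called higher and 2 lower, *Cldn4* (4.39) and *Jup* (3.46) were higher in H3.3-KD than in MFN1-KD, and *Tspan8* (-1.62) and *Tjp1* (-1.54) were lower. Among upstream genes, with 4 of 13 called higher and 3 lower, *Yap1* (2.01) and *Nf2* (1.60) were higher and *Amot* (-2.75) lower. In the inner cell mass list, with 9 of 18 called higher and 2 lower, *Pou5f1* (6.16), *Pecam1* (1.74) and *Klf2* (1.36) were higher and *Sall4* (-1.08) and *Sox21* (-0.96) lower. The *Klf2* call was lost in 6 of 17 other settings (0.06 with the GC and length trend removed) and that of *Sox21* in 10. Among family members and Id partners *Gata1* (2.24), *Gata4* (1.56), *Id1* (1.95) and *Tcf3* (1.82) were higher. *Tcf3*, too, met the filter only through H3.3-KD, and with the GC and length trend removed it and *Gata4* were not called. Called higher were 3 of 11 family members and 1 of 10 partners, and 1 partner was lower. The counts of each list stand beside 27.6% of all genes called higher and 11.0% lower in this comparison.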

How the results depend on the processing

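For single genes, 1056 of 1224 alternative values kept their direction and their side of the threshold, 143 lost a call, 8 gained one and 17 changed sign. All 17 sign changes were of differences that were not called. *Cdx2* in MFN1-KD turned to 0.16 with the GC and length trend removed. *Gata3* in H3.3-KD turned to -0.10 (median-ratio scaling), -0.21 (upper-quartile), -0.27 (GC and length) and -0.22 (without H3.3-KD replicate 2, against 0.44 without replicate 3). *Tfap2c* in H3.3-KD against MFN1-KD turned to -0.06 (upper-quartile) and -0.11 (GC and length), *Krt8* to -0.26 (GC and length) and -0.06 (without H3.3-KD replicate 2, leave-one-out range to 1.39), *Id2* to 0.10 (without MFN1-KD replicate 2, range from -0.70) and *Smad7* to -0.10 (upper-quartile) and -0.38 (GC and length). *Id2* in MFN1-KD turned to 0.13 without control replicate 3 and 0.07 without MFN1-KD replicate 3 (range from -0.67), and *Krt8* in H3.3-KD to 0.01, 0.08 and 0.63 without control replicate 3 and H3.3-KD replicates 1 and 3 (range from -0.82).

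The number of trophectoderm genes called in H3.3-KD (2) became 1 after median-ratio scaling, with no filter and with the GC and length trend removed, 0 after upper-quartile scaling, and 3 (with *Tfap2a*) with the filter at 0.1 FPKM. Against MFN1-KD (1) it became 0 with 6 libraries and with the GC and length trend removed. Over all genes, the MFN1-KD calls (150 higher, 286 lower) became 0 and 2 with no filter, 7 and 28 with the filter at 0.1 FPKM, 0 and 0 with 6 libraries, where 2724 genes had an unadjusted p under 0.05, and 71 and 160 with the GC and length trend removed. With a pseudocount of 0.1 FPKM 93 were higher. Upper-quartile scaling gave 1656 higher and 2085 lower in H3.3-KD against control, and 2275 and 2467 against MFN1-KD. The causes were not tested. Fewer libraries leave fewer degrees of freedom, and the part of this was not tested either.

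Leaving out 1 library gave 0 to 148 higher and 0 to 517 lower in MFN1-KD, 1763 to 3441 and 669 to 1629 in H3.3-KD, and 2789 to 3840 and 1081 to 1582 between knockdowns. Trophectoderm genes called then ranged from 0 to 1, 1 to 2 and 0 to 2. Libraries with the same number were not treated as paired, and whether they shared a batch is not stated. The correlation of their deviations ran from -0.053 to 0.158. For libraries of different groups with different numbers it ran from -0.116 to 0.072. A replicate block gave 6 higher and 25 lower calls in MFN1-KD, with 1 trophectoderm gene called in H3.3-KD (*Tfap2c*) and 2 against MFN1-KD (*Krt18* and *Cdx2*). Unknown depth limits all values under about 1 FPKM, where *Cdx2*, *Tfap2a*, *Eomes* and *Elf5* lie in control embryos.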
